A study of Mus musculus with 6 samples.

Results

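Cytosolic ribosomal protein genes were followed in HEI-OC1, an auditory cell line established from the organ of Corti of a transgenic mouse, which grows under a conditional immortalising gene. Members were taken by symbol: Rpl or Rps followed by a digit, with Rplp0, Rplp1, Rplp2 and Rpsa, and without the S6 kinases or hyphenated symbols. The rule took 88 of the 30438 symbols in the count table, 53 named for the large (60S) subunit and 35 for the small (40S) subunit. Of these, 77 are canonical ribosomal proteins (46 large, 31 small) and 11 are paralogs or other symbols with the same prefix. Counts sufficed for a test in 84 members, 50 large and 34 small, which include all 77 canonical genes.

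The study sequenced poly(A)-selected RNA from 3 libraries of HEI-OC1, the control, and 3 libraries labelled Nrf2 KO, a knockout in the same line, numbered 1 to 3 in each group. Both groups grew in the same medium with 10% serum at 33 °C in 10% CO2, with no drug treatment in the labels. The sources used here do not give how the knockout was made, whether it is 1 clone, or whether libraries came from separate cultures, so the spread between libraries may be technical. Nrf2, encoded by Nfe2l2, is the transcription factor that drives antioxidant genes. Nfe2l2 stood at 74.2, 126 and 96.7 CPM (counts scaled to library size, with TMM factors) in the controls and at 396, 236 and 205 CPM in libraries labelled Nrf2 KO. The targeted transcript was thus higher in every library labelled as its knockout (log2 fold change 1.49, SE 0.33, edgeR adjusted p = 0.0456), and gene-level counts do not show whether it is intact. That call ended without any single library other than replicate 1 labelled Nrf2 KO, with adjusted p from 0.0784 to 0.202, while the direction held. It also ended with library size alone (adjusted p = 0.0593) and upper-quartile scaling (adjusted p = 0.0526). All directions below are given for libraries under that label. Totals ran from 29130007 to 51285343 counts. The labels call the cells cochlear stem cells. Of 15 supporting cell and prosensory markers 9 had counts enough for a test, and Sox2 and Sox10 had 0 counts in all 6 libraries. Of 11 hair cell markers 2 could be tested, and 4, among them Atoh1 and Tmc1, had 0 counts.

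The cytosolic ribosome is built from ribosomal RNA and one copy of most ribosomal proteins, with the small subunit reading the mRNA and the large subunit joining amino acids. Because the proteins are needed in near-equal amounts, their genes are commonly regulated together, and growth signals through mTORC1 act on the translation of their mRNAs. Those mRNAs typically start with a stretch of pyrimidines, the 5′ terminal oligopyrimidine or TOP motif. Measured mRNA levels do not show how much protein or how many ribosomes a cell holds.

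RefSeq promoters (GRCm38.p6) matched 57 of the 77 canonical genes, with 67 start sites. The windows printed here span 40 bases before the start and 20 bases from it, and belong to 8 genes with a single listed start that were among the most abundant or at the ends of the fold-change order below. Capitals mark the longest run of C and T that reaches within 10 bases of the start, and such a run may extend further.
Rpl4, chr9:64173347-64173406, plus strand: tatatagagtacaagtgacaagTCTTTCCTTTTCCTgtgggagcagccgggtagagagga
Rpl7a, chr2:26910767-26910826, plus strand: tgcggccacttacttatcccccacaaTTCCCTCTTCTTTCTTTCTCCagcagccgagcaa
Rpl35, chr2:39005112-39005171, minus strand: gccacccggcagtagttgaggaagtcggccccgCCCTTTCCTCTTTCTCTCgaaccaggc
Rpl38, chr11:114668540-114668599, plus strand: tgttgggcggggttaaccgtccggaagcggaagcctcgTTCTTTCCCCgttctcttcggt
Rps2, chr17:24720023-24720082, plus strand: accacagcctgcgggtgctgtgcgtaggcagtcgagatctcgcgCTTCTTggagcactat
Rps3, chr7:99483690-99483749, minus strand: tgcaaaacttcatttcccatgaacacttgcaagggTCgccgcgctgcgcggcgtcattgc
Rps4x, chrX:102189372-102189431, minus strand: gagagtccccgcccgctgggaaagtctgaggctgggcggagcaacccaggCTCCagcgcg
Rps15, chr10:80292391-80292450, plus strand: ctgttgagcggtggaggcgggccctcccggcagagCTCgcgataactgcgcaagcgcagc

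Runs of at least 8 C or T touched the 10 bases on either side of the start at 28 of the 67 starts (41.8%), against 14% of 32851 RefSeq promoter starts of the same length. Runs of A or G, the same letters on the opposite strand, were found at 5.97% of the members' starts and 15.6% of all starts. The windows of Rpl4, Rpl7a, Rpl35 and Rpl38 hold runs of 14, 21, 18 and 10 bases, and the listed starts of Rps3, Rps4x and Rps15 hold only 2 to 4. The Rpl4 run begins at position -18 and ends before the listed start, so it lies outside an mRNA that begins there. Over the full 300 bases and both strands, CCGGAAG, the core bound by ETS factors, was in 37.3% of the members' promoters and 8.86% of all. AAGATGG, the core of YY1 sites, was in 16.4% against 6.34%. The last letters of the first motif are the first letters of the other, so a stretch can hold both. TGACNNNGC, the antioxidant response element bound by NRF2, was in 17.9% against 12.4%. These matches are letters in a reference and not measured binding.

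Ribosomal protein genes took a smaller share of the library in each numbered pair of the libraries labelled Nrf2 KO and control. Large subunit genes held 5.69, 3.81 and 4.46% of the counts in control replicates 1, 2 and 3, and 3.98, 2.71 and 3.01% in the libraries labelled Nrf2 KO. Small subunit genes held 3.79, 2.64 and 3.08% in the controls and 2.13, 1.84 and 2.07% under the knockout label. The small subunit shares did not overlap between the groups, while the large subunit share of replicate 1 labelled Nrf2 KO lay above that of control replicate 2. Together the shares were 7.83 ± 1.54% (SD, n = 3) in the controls and 5.25 ± 0.79% (SD, n = 3) in the libraries labelled Nrf2 KO, a difference of -2.58 percentage points that was -1.75 without control replicate 1. Within pairs 1, 2 and 3 the joint share under the knockout label was 0.644, 0.706 and 0.673 of the control share. A share is relative, so more RNA of other genes would also lower it. In bulk RNA that, fewer cells of a type and less RNA per cell cannot be told apart.

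**Figure D1:**
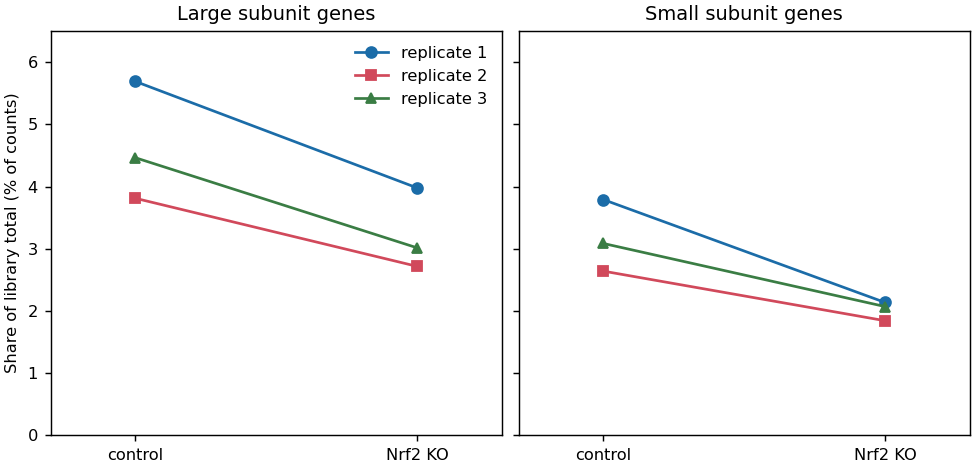
Share of each library's counts (%, y axis from 0) in large and small subunit genes, with lines joining libraries of the same replicate number. Every line descends from control to Nrf2 KO label, and replicate 1 is the highest and replicate 2 the lowest in both groups and both subunits.

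The balance of the subunits differed in 1 library. Large subunit counts were 1.502, 1.44 and 1.45 times the small subunit counts in the controls. The libraries labelled Nrf2 KO had ratios of 1.87, 1.48 and 1.46, so replicate 1 stood apart from the other 5 libraries. The pair 1 share of small subunit genes, 0.563 of the control, was accordingly lower than that of large subunit genes, 0.699. In pairs 2 and 3 the values of the subunits lay close together, at 0.712 and 0.675 for the large and 0.697 and 0.670 for the small.

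Gene by gene, 81 of the 84 tested members had a log2 fold change below 0, 48 of 50 in the large and 33 of 34 in the small subunit, against 46.4% of the 14618 genes tested. The median log2 fold change was -0.49 for large subunit genes and -0.62 for small subunit genes, beside 0.04 for all genes. None passed the threshold, an adjusted p of 0.05, in the quasi-likelihood test of edgeR, adjusted by Benjamini and Hochberg's method over all genes. In that test 3.45% of all genes were lower and 4.83% higher. At an unadjusted p below 0.05 the test had 15 large and 19 small subunit genes lower and 0 higher, with 11.6% of all genes lower and 13.4% higher. DESeq2 called 12 large and 15 small subunit genes lower (9.02% of all genes lower), and limma-voom called 1 large and 0 small (4.12%). Scaling by library size alone, edgeR called 1 large and 0 small (3.66%). The smallest adjusted p of edgeR's test among the members was 0.0531, for Rpl21.

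**Figure D2:**
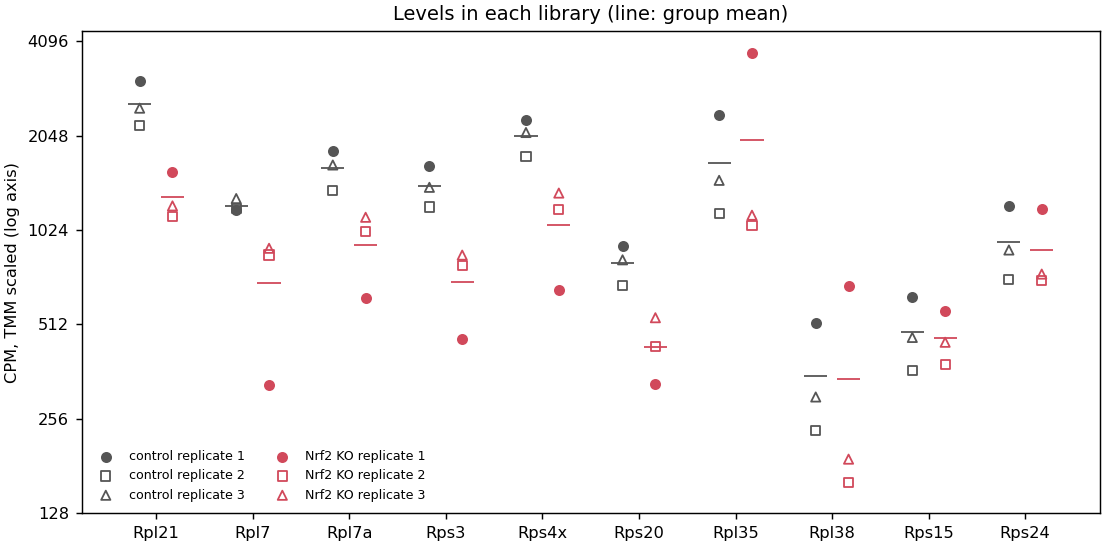
Levels (CPM, log axis) of members from both ends of the fold-change order in each of the 6 libraries, with the groups by colour. The Rpl21 points of the libraries labelled Nrf2 KO lie wholly below the control points, whereas those of Rpl35 and Rpl38 interleave.

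The labels give no pairing. Libraries with the same number deviated together from their group means, so the numbers were treated as pairs. Deviations within a group cancel, so a shift shared by both replicate 1 libraries also makes the other numbers correlate. Libraries with unlike numbers were not compared, so whether the other numbers are pairs was not tested. With the replicate number as a block, edgeR's test called 11 large and 9 small subunit genes lower and 0 higher, where 7.92% of all genes were lower and 10.4% higher. The large subunit genes that fell in this fit were Rpl11, Rpl13, Rpl17, Rpl21, Rpl22, Rpl27a, Rpl28, Rpl31, Rpl36, Rpl36a and Rplp1. The small subunit genes included Rps6, Rps10l1, Rps12, Rps13, Rps19, Rps21, Rps26 and Rps28. Without both replicate 1 libraries, 36 large and 26 small subunit genes fell and 1 member rose, with 22.1% of all genes lower and 24% higher. All 20 genes called with the block were among these 62, but the fits share libraries, so the overlap is not independent agreement. Leaving out only replicate 1 labelled Nrf2 KO gave 21 lower in each subunit (14.5% of all genes lower), and leaving out any other single library gave 0. The medians without both replicate 1 libraries, -0.48 and -0.54, stayed near those of all 6 libraries.

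The numbered pairs show the same direction with a different spread. Members were lower under the knockout label in 80, 80 and 81 of 84 cases in pairs 1, 2 and 3, compared with 49.2, 50.9 and 50.4% of all genes. The median log2 difference of large subunit genes was -0.64, -0.43 and -0.54 in pairs 1, 2 and 3. For small subunit genes it was -0.94, -0.49 and -0.59. The SD over members was 0.51 in pair 1 and 0.22 and 0.26 in the others. Members lower in all 3 pairs numbered 75 of 84 (44 large, 31 small), against 30.5% of all genes. In 44 members (21 large, 23 small) every library labelled Nrf2 KO lay below every control, which held for 17.1% of all genes, and 0 members had the opposite order.

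**Figure D3:**
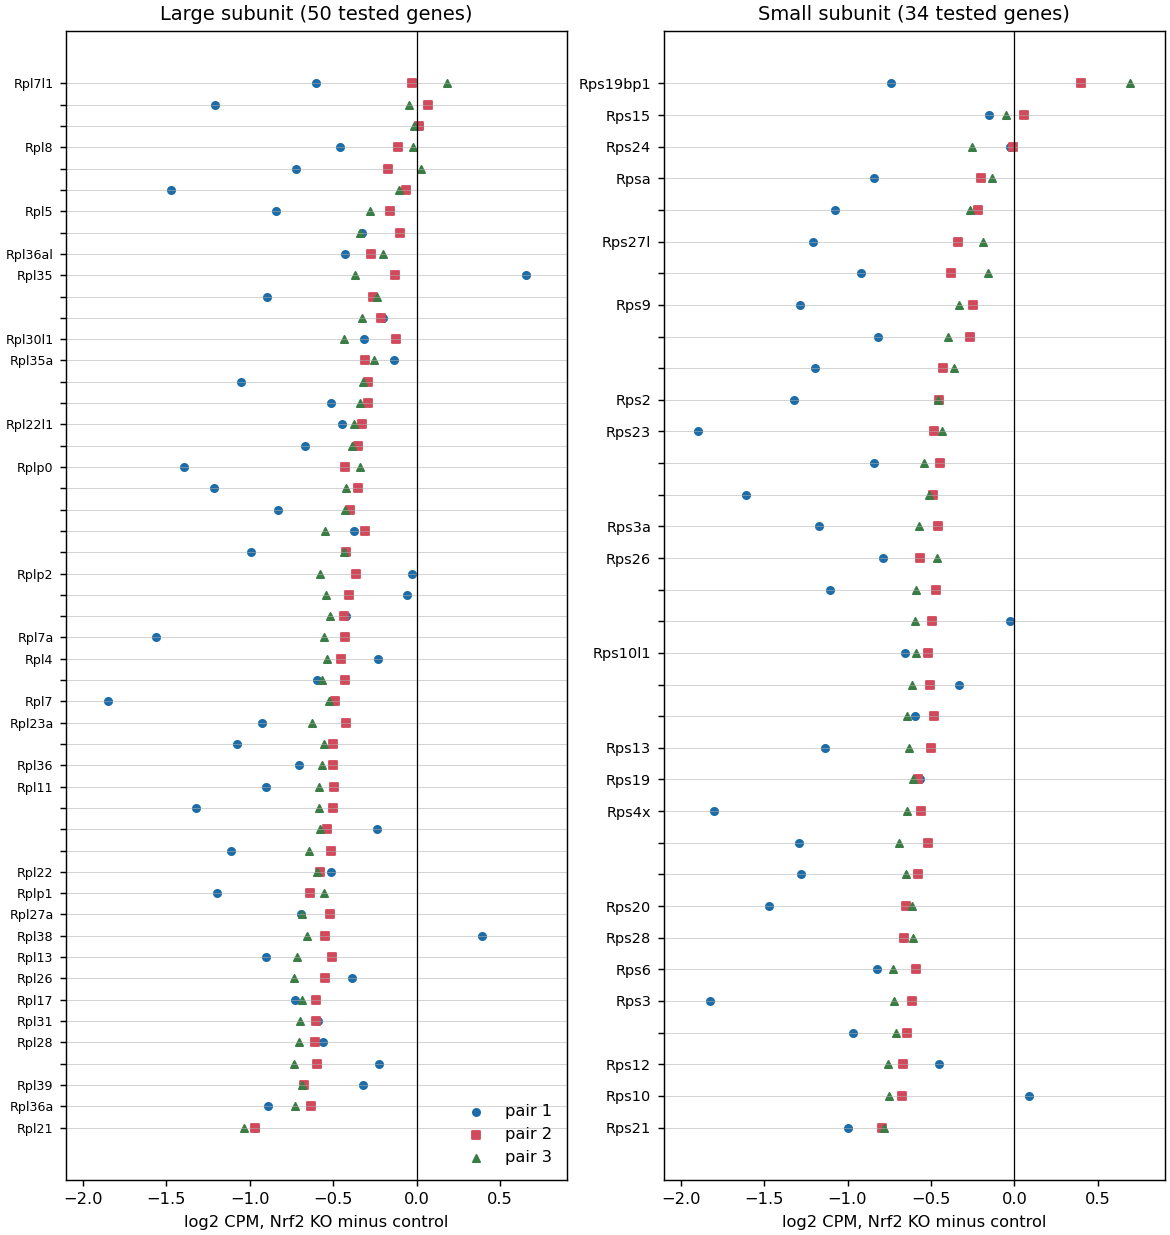
Log2 difference (Nrf2 KO label minus control, log2 CPM) of each member in the 3 numbered pairs, large and small subunit apart, with genes named where the text names them. Most points lie below 0 in all pairs, and pair 1 runs from -1.90 (Rps23) to 0.66 (Rpl35), a wider range than pairs 2 and 3.

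Among large subunit genes the lowest fold change belonged to Rpl21, a component of the 60S subunit. Rpl21 stood at 3058, 2211 and 2507 CPM in the controls and 1563, 1130 and 1223 CPM in libraries labelled Nrf2 KO. The groups did not overlap, and the pair differences were close to each other at -0.97, -0.97 and -1.04. Its log2 fold change was -0.99 (SE 0.23), with an adjusted p of 0.0531 by edgeR's test, 0.0204 with the block and 0.000354 without both replicate 1 libraries. Rpl21 therefore crossed the threshold only when the replicate number was modelled, replicate 1 labelled Nrf2 KO was left out, or DESeq2 or limma-voom was used.

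Rpl7 and Rpl7a, both 60S proteins, followed Rpl21 in the order but owed much of their value to 1 library. Rpl7 read 1187, 1197 and 1290 CPM in the controls and 329, 852 and 895 CPM under the knockout label. Rpl7a read 1834, 1367 and 1651 CPM in the controls and 621, 1015 and 1124 CPM under that label. Neither gene overlapped between the groups, and replicate 1 was the lowest library for both. The log2 fold change of Rpl7 was -0.82 (SE 0.39, edgeR adjusted p = 0.258), and that of Rpl7a was -0.81 (SE 0.28, adjusted p = 0.137). Without both replicate 1 libraries both fell, with adjusted p-values of 0.00434 and 0.0129 in edgeR's test. Without replicate 1 labelled Nrf2 KO alone, Rpl7 was -0.49 (adjusted p = 0.0329) and Rpl7a -0.60 (adjusted p = 0.0419). With all libraries DESeq2 called Rpl7a (adjusted p = 0.0285) and did not call Rpl7.

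The other end of the large subunit order included Rpl35 and Rpl38. Rpl35, whose product sits beside the exit of the peptide tunnel, stood at 2390, 1154 and 1475 CPM in the controls and at 3768, 1057 and 1142 CPM in libraries labelled Nrf2 KO. Replicate 1 was far above replicates 2 and 3 in both groups, and the groups overlapped. Its log2 fold change was 0.25 (SE 0.58, edgeR adjusted p = 0.845) and became -0.25 without both replicate 1 libraries. Rpl38, whose loss in mice alters the axial skeleton, showed the same layout, with 516, 235 and 300 CPM in the controls and 676, 160 and 190 CPM under the knockout label. Its fold change was -0.03 (SE 0.62, edgeR adjusted p = 0.983) with all libraries and -0.61 (adjusted p = 0.00828) without both replicate 1 libraries.

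Rpl4, which lines the peptide tunnel, was among the most abundant members, with 2936, 2012 and 2380 CPM in the controls and 2498, 1472 and 1642 CPM in libraries labelled Nrf2 KO. Its groups overlapped, and the log2 fold change was -0.39 (SE 0.28, edgeR adjusted p = 0.471). Rpl4 fell without replicate 1 labelled Nrf2 KO (-0.65, adjusted p = 0.0484) and without both replicate 1 libraries (-0.49, adjusted p = 0.0124), and stood at -0.23 without control replicate 1 and -0.24 without replicate 2 labelled Nrf2 KO.

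In the small subunit, Rps3, Rps4x and Rps20 had the lowest fold changes. Rps3, part of the channel through which mRNA enters the ribosome, stood at 1634, 1213 and 1401 CPM in the controls and 461, 791 and 852 CPM under the knockout label. Rps4x, an X-linked 40S protein, stood at 2303, 1754 and 2096 CPM in the controls and 661, 1192 and 1343 CPM under that label. Rps20 read 913, 683 and 822 CPM against 330, 435 and 537 CPM. In all of these genes the groups were apart and replicate 1 was the highest control and the lowest library labelled Nrf2 KO. The log2 fold changes were -1.01 (SE 0.29) for Rps3, -0.94 (SE 0.31) for Rps4x and -0.89 (SE 0.24) for Rps20. Their adjusted p-values in edgeR's test were 0.0872, 0.123 and 0.0785, and without both replicate 1 libraries 0.00217, 0.00587 and 0.00713. DESeq2 called all 3 with all libraries, with adjusted p-values of 0.00553, 0.0194 and 0.00353.

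The most abundant small subunit genes were Rps2, Rps3a and Rps4x. Rps2, a neighbour of Rps3 in the entry channel, read 3202, 2819 and 3151 CPM in the controls and 1282, 2061 and 2298 CPM in libraries labelled Nrf2 KO. Rps3a read 2579, 1915 and 2299 CPM against 1144, 1394 and 1546 CPM. Neither gene overlapped between the groups. The log2 fold changes were -0.70 (SE 0.27, edgeR adjusted p = 0.172) for Rps2 and -0.73 (SE 0.22, adjusted p = 0.0998) for Rps3a. DESeq2 called both (adjusted p = 0.0460 for Rps2 and 0.00349 for Rps3a). Both also fell in edgeR's test without replicate 1 labelled Nrf2 KO (0.0478 and 0.0391) and without both replicate 1 libraries (0.0138 and 0.0110).

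Rps15 and Rps24 were the canonical small subunit genes nearest to 0. Rps15, which reaches towards the decoding site, read 626, 365 and 465 CPM in the controls and 564, 381 and 449 CPM under the knockout label. Rps24, a gene mutated in some patients with Diamond-Blackfan anaemia, read 1220, 711 and 884 CPM against 1197, 707 and 741 CPM. Both groups covered nearly the same range, with replicate 1 highest in each. The log2 fold changes were -0.06 (SE 0.27, edgeR adjusted p = 0.922) for Rps15 and -0.09 (SE 0.31, adjusted p = 0.899) for Rps24.

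Sites of the ribosome were compared by role, with the groups of genes chosen after values had been seen. The P stalk genes Rplp0, Rplp1 and Rplp2, whose products recruit elongation factors, were lower in all 3 pairs, as were 75 of 84 members and 30.5% of all genes. Their median log2 differences were -1.20, -0.43 and -0.56. Within the stalk, pair 1 ranged from -1.39 for Rplp0 to -0.03 for Rplp2, and pair 3 only from -0.34 to -0.58. Rpl5 and Rpl11, which carry 5S ribosomal RNA and bind MDM2 when free, had medians of -0.87, -0.33 and -0.43. Rpl4, Rpl17, Rpl23a, Rpl26, Rpl35 and Rpl39, which line or surround the peptide tunnel, had medians of -0.35, -0.50 and -0.65. The entry channel genes Rps2 and Rps3 had medians of -1.57, -0.53 and -0.59. Rpl12, at the base of the stalk, had differences of -1.21, -0.35 and -0.43. Genes of the decoding and E sites had medians of -1.22, -0.46 and -0.47, with Rps15 at 0.06 in pair 2. Those of the mRNA exit platform had medians of -0.79, -0.57 and -0.46. The order of the sites in pair 1 was not that of pair 3. The groups do not hold every protein of a site, so their medians and order depend on which genes were listed.

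Paralogs and other symbols took little of the signal. Rps10l1, a paralog whose reads may be shared with Rps10, read 198, 133 and 150 CPM in the controls and 125, 92.4 and 99.7 CPM in libraries labelled Nrf2 KO (log2 fold change -0.60, SE 0.21, edgeR adjusted p = 0.152, 0.0291 with the block). The tested paralogs Rpl22l1, Rpl36al, Rpl7l1, Rps27l and Rpl30l1 had log2 fold changes of -0.39, -0.30, -0.06, -0.48 and -0.35, and none was called with all libraries. Rpl30l1 had only 12 to 30 counts per library, and its fold change had an SE of 0.47. Rpl36al fell without both replicate 1 libraries (-0.23, adjusted p = 0.0497). Leaving out 1 library moved Rpl22l1 to -0.19 (control replicate 1) and Rps27l to -0.18 (replicate 1 labelled Nrf2 KO), and turned Rpl30l1 to 0.058 (control replicate 1) and Rpl7l1 to 0.27 (replicate 1 labelled Nrf2 KO). Rps19bp1, a binding partner of Rps19 and not a ribosomal protein, read 5.79, 14.9 and 11.2 CPM in the controls and 3.45, 19.7 and 18.2 CPM under the knockout label. Its log2 fold change was 0.37 (SE 0.66, edgeR adjusted p = 0.795), and it was the 1 member that rose without both replicate 1 libraries (0.54, adjusted p = 0.0202). The 4 untested members were Rpl10l, with 0 counts throughout, Rpl39l and Rps4y2, with 0 in every control and at most 9 and 2 elsewhere, and Rpl3l, with 4 to 9 counts per library.

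Replicate 1 ordered the members in the same way in both groups. Its deviation, the log2 CPM of replicate 1 minus the mean of replicates 2 and 3, was above 0 for 75 of 84 members in the controls and for 45 in the libraries labelled Nrf2 KO. It ranged from -1.15 to 0.96 in the controls and from -2.44 to 1.95 under the knockout label. Rpl38 had the highest deviation in both groups and Rps19bp1 the lowest. Across members the deviations of the 2 groups had a Spearman rho of 0.93 and a Pearson r of 0.90 (n = 84 genes that share the same libraries), beside 0.78 and 0.75 for all genes. The differences of pairs 2 and 3 had a rho of 0.90 over the members, whereas pair 1 had a rho of 0.13 with pair 2 and 0.01 with pair 3. Over all genes these were 0.86, 0.56 and 0.49. These are descriptions over genes, which are not replicates.

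**Figure D4:**
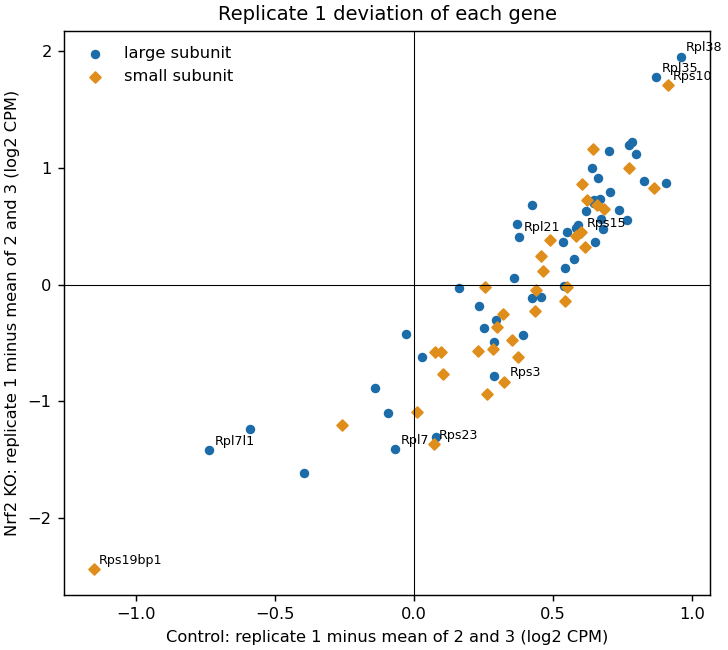
Deviation of replicate 1 from the mean of replicates 2 and 3 (log2 CPM) for each of 84 members, control on the x axis and Nrf2 KO label on the y axis. The points rise together from Rps19bp1 to Rpl38, and the y axis spans from -2.44 to 1.95 against -1.15 to 0.96 on the x axis.

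Among the canonical genes the deviation was related to coding length and to exon number. Over the 77 canonical genes, with GENCODE vM21 transcripts, the Spearman rho of coding length with the replicate 1 deviation was -0.41 in the controls and -0.44 in the libraries labelled Nrf2 KO. For the mean difference of pairs 2 and 3 it was 0.21. Exon number had a rho of -0.321 with the deviation in the controls and -0.324 under the knockout label. GC content had a rho of 0.02 in the controls and -0.01 under the knockout label. None of these was computed over all genes. These points come from the same libraries, and the part of length or exon number in any result was not tested.

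Levels between genes can be set side by side only per length, for which the authors' deposited table gives 1 FPKM value per group. In the authors' deposited table the median FPKM of the 46 large subunit genes was 1148 in the control and 825 under the knockout label, with 44 lower. For the 31 small subunit genes the authors' deposited table has medians of 1202 and 775, with all 31 lower. The share of all genes lower in FPKM was not computed. The FPKM columns bear the names of these same groups, so they are not independent agreement with the counts. The control FPKM of that authors' deposited table ran from 10.9 for Rpl35a to 3867 for Rpl21 in the large subunit, and from 457 for Rps9 to 2689 for Rps2 in the small. Rpl35a, Rpl8 (60.4) and Rplp2 (96.4) lay far below the others in the authors' deposited table, although their products belong to the same particle. The symbols follow rat nomenclature while the cells are from mouse, and the sources used here do not say which gene models were counted.

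Other genes of ribosome production were described from lists. Fau, which encodes a 40S protein fused to a ubiquitin-like protein, and Rack1, a 40S scaffold, had log2 fold changes of -0.56 and -0.77. In edgeR's test with all libraries neither passed (adjusted p = 0.264 and 0.161), while DESeq2 called Rack1 (adjusted p = 0.0495), and both fell without both replicate 1 libraries. Fau was -0.33 without control replicate 1. Of 84 tested ribosome biogenesis factors, 2 fell and 0 rose with all libraries, with a median of -0.23. In that fit 3.45% of all genes were lower and 4.83% higher. With the block 12 fell and 2 rose, where 7.92% of all genes were lower and 10.4% higher. Without both replicate 1 libraries 42 fell and 5 rose, where the shares of all genes were 22.1% and 24%.

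The 2 factors were Ebna1bp2, which acts in ribosomal RNA processing, and Fbl, the methyltransferase fibrillarin. Ebna1bp2 read 96.2, 82.6 and 93.3 CPM in the controls and 38.6, 48.3 and 54.8 CPM in libraries labelled Nrf2 KO (log2 fold change -0.94, SE 0.18, edgeR adjusted p = 0.0263). Fbl read 239, 199 and 217 CPM against 101, 129 and 141 CPM (-0.82, SE 0.18, edgeR adjusted p = 0.0453). Neither gene overlapped between the groups. Both calls held without replicate 1 labelled Nrf2 KO and ended without any other single library, with adjusted p from 0.0626 to 0.153 for Ebna1bp2 and from 0.102 to 0.207 for Fbl. The Fbl call also ended with no filter on low counts (adjusted p = 0.0680).

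RNA polymerase I genes, which make ribosomal RNA, had 0 of 12 called with all libraries and a median of -0.12. That fit called 3.45% of all genes lower and 4.83% higher. Ubtf, a factor of that polymerase, had a log2 fold change of 0.20 (SE 0.16), and Taf1d, a subunit of its initiation complex, had -0.48 (SE 0.33, edgeR adjusted p = 0.434), which became -0.93 (adjusted p = 0.00839) without replicate 1 labelled Nrf2 KO and -0.77 (adjusted p = 0.000268) without both replicate 1 libraries. Leaving out replicate 2 or 3 labelled Nrf2 KO gave Taf1d values of -0.32 and -0.30. Translation factors had 0 of 42 called with all libraries (3.45% of all genes lower, 4.83% higher) and a median of -0.16. With the block 0 RNA polymerase I genes fell and 1 rose, and 3 translation factors fell and 1 rose (7.92% of all genes lower, 10.4% higher). Without both replicate 1 libraries 6 RNA polymerase I genes fell and 1 rose, and 16 translation factors fell and 10 rose (22.1% of all genes lower, 24% higher). Eef1a1, the elongation factor that delivers aminoacyl-tRNA, read 4636, 6658 and 6242 CPM in the controls and 2403, 7053 and 6740 CPM under the knockout label, with replicate 1 lowest in both groups. Eif5a, a factor that assists peptide bond formation, read 1415, 1759 and 1852 CPM against 400.2, 1359 and 1494 CPM, with the same library lowest. The log2 fold changes were -0.11 (SE 0.44, edgeR adjusted p = 0.911) for Eef1a1 and -0.63 (SE 0.49, adjusted p = 0.497) for Eif5a. Without both replicate 1 libraries they were 0.10 (edgeR adjusted p = 0.478) and -0.34 (adjusted p = 0.0283).

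Among 14 tested regulators of ribosomal protein synthesis, 1 rose and 0 fell with all libraries, with a median of 0.09. In that fit 4.83% of all genes were higher and 3.45% lower. With the block 1 rose and 3 fell (10.4% of all genes higher, 7.92% lower), and without both replicate 1 libraries 4 rose and 3 fell (24% and 22.1%). The gene called with all libraries was Tsc1, whose product hamartin restrains mTORC1. Tsc1 read 37.2, 37.8 and 38.5 CPM in the controls and 75.0, 75.9 and 69.3 CPM in libraries labelled Nrf2 KO. Replicate 1 did not stand apart for this gene, and the groups were clearly separate (log2 fold change 0.96, SE 0.13, edgeR adjusted p = 0.00884). The call ended without control replicate 1, 2 or 3 or replicate 2 labelled Nrf2 KO, with adjusted p from 0.0534 to 0.0876 and a log2 fold change of at least 0.93 in each.

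**Figure D5:**
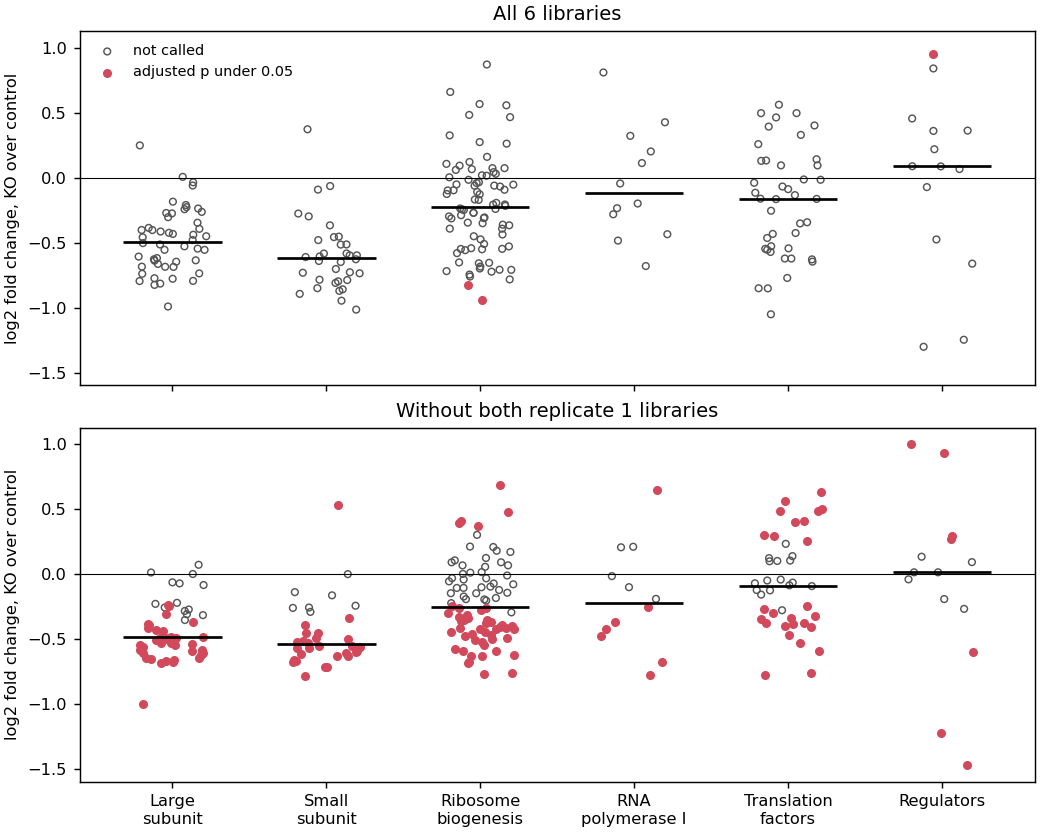
Log2 fold change (Nrf2 KO label over control) of every tested gene in the subunits and 4 other lists, with all 6 libraries (top) and without both replicate 1 libraries (bottom); lines mark medians and filled points an adjusted p under 0.05. With all 6 libraries large and small subunit genes lie mostly below 0, with medians of -0.49 and -0.62, while biogenesis factors center at -0.23 and regulators at 0.09.

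Markers of other cell types differed between the groups too. In the test with all libraries, where 4.83% of all genes were higher and 3.45% lower, 5 of 8 tested fibroblast markers rose, and their summed level was 5875 to 6896 CPM in the controls and 7798 to 8615 CPM in libraries labelled Nrf2 KO. Of 9 tested supporting cell and prosensory markers 5 rose, with sums of 499.6 to 628 CPM and 701 to 1074 CPM. Of 2 tested hair cell markers 1 rose, with sums of 33.9 to 45.8 CPM and 64.0 to 73.3 CPM. Of the other lists, 1 of 1 tested epithelial marker and 1 of 5 endothelial and pericyte markers rose. Falls were called for 2 of 5 endothelial and pericyte, 1 of 2 leukocyte and 1 of 5 neuron and glia markers, and 0 of 3 melanocyte markers were called. The epithelial, endothelial, leukocyte, neuron and melanocyte lists each summed to at most 299.7 CPM in any library. The part of cell state, of cell composition and of replicate 1 in the ribosomal protein values was not tested.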

How the data were processed

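Counts were deposited by the authors as whole numbers per gene symbol and library, and a further deposited table holds FPKM as 1 value per group, made by the authors in a way that the sources used here do not give. The submitters' processing notes list DESeq2 1.34.0, HISAT2, FastQC and fastp, with hg18 as the build. The sources used here do not give the counter, strand setting or annotation, so paralogs and overlapping genes may share reads, and levels between genes depend on the gene models more than ratios of 1 gene.

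The test was the quasi-likelihood test of edgeR 4.0.16 (R 4.3.3): filterByExpr (minimum count 10, minimum total 15), TMM scaling, robust fit on the group, two-sided p-values with Benjamini-Hochberg adjustment over 14618 genes and a threshold of 0.05. CPM carry TMM scaling, and pair differences use log2 CPM with a prior count of 2. DESeq2 1.42.0, limma-voom (limma 3.58.1), other scalings and filters, the replicate block and left-out libraries were alternatives. Scripts were tested on simulated data. Deviations from group means correlated across genes between same-numbered libraries at 0.754, 0.696 and 0.310, above the limit of 0.1. Numbers were therefore taken as pairs, from the counts and not the labels. Libraries with unlike numbers were not compared in this way. The closest libraries of a group had a chi-square per degree of freedom of 14.3, so none was a duplicate.

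Named members were, in each subunit, up to 6 called genes per direction, the 3 most abundant, the 3 largest and 3 smallest fold changes at a mean of at least 5 CPM, and all paralogs. In the other lists up to 3 called genes were named, or the 2 most abundant where none was called. Genes named by ribosomal site, by call or by deviation were picked with their values in view. The members and lists were chosen with earlier results of these data known. The naming rule also took genes not reported here. Of 232 listed symbols, 4 were not matched.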

Additional observations from a re-analysis of the deposited data

How the results depend on the processing

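The medians of both subunits and the difference in share kept their direction under every alternative run, and the counts of called members did not hold. The share of all genes called lower moved too. It was 3.45% with all libraries, 9.02% with DESeq2, 3.66% with library size alone and 4.12% with limma-voom. Without both replicate 1 libraries it was 22.1%. Against 0 with all libraries, large subunit genes called lower numbered 12 with DESeq2 and 36 without both replicate 1 libraries. Library size alone gave 1 (Rplp1) and limma-voom 1 (Rpl21). Small subunit genes called lower numbered 15 with DESeq2 and 26 without both replicate 1 libraries, where 1 was called higher (24% of all genes higher). The pairing by replicate number, fitted as a block, gave 11 large and 9 small subunit genes lower (7.92% of all genes lower). Leaving out each library in turn gave 0 to 21 lower in each subunit. The 21 came without replicate 1 labelled Nrf2 KO, where 14.5% of all genes were lower. Across these fits the large subunit median ran from -0.67 to -0.34 and the small subunit median from -0.75 to -0.49. The share difference ran from -3.27 to -1.75 percentage points. Single genes near 0 reversed. With each library left out in turn, log2 fold changes ran from -0.72 to 0.058 for Rpl30l1, -0.61 to 0.59 for Rpl35, -1.01 to 0.35 for Rpl38 and -0.29 to 0.27 for Rpl7l1. They ran from -0.23 to 0.16 for Rps15, -0.38 to 0.14 for Rps24 and -0.35 to 0.23 for Eef1a1. Without both replicate 1 libraries Eef1a1 reversed to 0.10, Rpl35 to -0.25, Rpl7l1 to 0.074 and Rps15 to 0.0026. Rpl38 reversed to 0.0029 with library size alone. The cause was not tested. Within groups, the chi-square per degree of freedom between libraries, near 1 under counting error alone, ran from 14.3 to 447 over all genes with enough counts. It was not computed for the members alone. The lowest count of a canonical member in any library was 150, for Rpl35a, and 1266 or more for the others.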

Other observations

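Rps19-2, left out of the members for its hyphen, read 704, 399.8 and 501 CPM in the controls and 477, 266 and 328 CPM in libraries labelled Nrf2 KO. Rps19 read 693, 393 and 489 CPM and 468, 264 and 321 CPM, so the symbols carry nearly the same values in each library. Whether reads were counted for both was not tested.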
